A study of Homo sapiens with 6 samples.

Results

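miRNAs of the miR-34 and miR-449 genes were followed in MDA-MB-231, a triple-negative human breast adenocarcinoma cell line. Its parental cells, grown as a 2D monolayer, were set against spheroid cells grown in suspension, with 3 samples deposited for each condition. Small RNA was counted in 1 table per condition, which gave 539798 reads of mature miRNAs for the parental and 1553014 for the spheroid cells, 2.88 times as many. The study reported far more parental reads matched to known miRNAs than this parental table holds. Its library counts gave a smaller share of matched reads in the spheroid than in the parental library, while percentages in its text were nearly equal. The 2.88 is thus no measure of miRNA content, and levels below are shares within each table. The members were chosen by name, as the mature sequences of the stem-loops mir-34a, mir-34b, mir-34c, mir-449a, mir-449b and mir-449c, and 7 of the 437 listed sequences belonged to 5 of these 6 stem-loops. No other groups, agents or alleles were compared, and the spheroid condition differed from the parental in medium as well as in attachment, since spheroids were formed without serum.

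The tables held 0 columns per sample, and the sources do not settle which of the 3 samples each table covers. There is therefore no replicate error. Intervals below are exact binomial (Clopper-Pearson) 95% intervals that cover counting error only, as reads of PCR products without molecular identifiers are not independent molecules. In such bulk samples, fewer cells that hold a miRNA and less of it per cell cannot be told apart.

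A miRNA binds mRNAs mainly through its seed, bases 2 to 8 from its 5′ end, and mature miRNAs with the same seed share many targets. The miR-34 genes are among the best known tumour-suppressive miRNA genes, and in tumour cells their products repress cell cycle and survival genes such as CCND1, CDK6 and BCL2, as well as CD44 and NOTCH1, which are used as markers or regulators of cancer stem cells. The miR-449 genes are best known from airway cells that form cilia and from testis, and they were described as targets of E2F1.

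The sequences below were taken from RefSeq (GRCh38.p14) and equal the sequences of the deposited tables. They are shown because the seed, in capitals, joins miRNAs of both gene families and separates them from their own second arms.
miR-34a-5p: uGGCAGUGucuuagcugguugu
miR-449a: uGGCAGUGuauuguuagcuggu
miR-449b-5p: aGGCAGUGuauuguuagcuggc
miR-34b-5p: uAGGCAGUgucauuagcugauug
miR-34a-3p: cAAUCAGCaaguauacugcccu
miR-449b-3p: cAGCCACAacuacccugccacu

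The seed GGCAGUG was held by 4 members, miR-34a-5p, miR-449a, miR-449b-5p and miR-34c-5p. In miR-34b-5p the same letters started 1 base later, so that its seed by position was AGGCAGU. Of the listed sequences outside the family, 0 shared a seed with any member. Over the 21 bases that start at GGCAGUG, miR-34a-5p and miR-449a had 14 bases in common. miR-449a and miR-449b-5p differed at 1 of these bases and miR-34c-5p and miR-34b-5p at 2, so a read with a mismatch could have been counted for the wrong one of such a pair. All reads of every member were counted as unique to that member in both tables, against 84.0% of all parental and 84.1% of all spheroid reads.

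The 6 stem-loops come from 3 places in the genome (GRCh37, GENCODE release 44 mapped to it). MIR34A lies at chr1:9211727-9211836 on the minus strand, within an exon of the noncoding gene MIR34AHG. MIR34B (chr11:111383663-111383746) and MIR34C (chr11:111384164-111384240) lie on the plus strand with 417 bases between them, both in MIR34BHG and opposite BTG4. MIR34C was within an exon of MIR34BHG, and MIR34B was intronic but for 4 bases. MIR449A (chr5:54466360-54466450), MIR449B (chr5:54466474-54466570) and MIR449C (chr5:54468090-54468181) lie on the minus strand in introns of CDC20B. Of these neighbours, MIR449A and MIR449B were separated by 23 bases.

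Both arms of only the mir-34a and mir-449b stem-loops were listed. The mir-34a stem-loop is printed with its mature arms in capitals, miR-34a-5p first and miR-34a-3p second, because its reads made up most of the family.
MIR34A stem-loop: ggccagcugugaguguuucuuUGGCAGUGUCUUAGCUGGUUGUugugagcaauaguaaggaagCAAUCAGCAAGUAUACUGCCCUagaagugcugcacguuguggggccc

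The comparison asked which miRNAs differ in level between the spheroid and the parental cells. 4 of the 7 family members, miR-34a-5p, miR-34a-3p, miR-34c-5p and miR-449a, were lower in the spheroid table, to between 0.139 and 0.383 of their parental level, and 0 were higher. A call required both a fold over 2 and an adjusted p under 0.05 (Kal's Z-test on the reads, Benjamini-Hochberg over the 436 sequences with a read), where the fold is spheroid over parental in reads per 1000000 of the table total (rpm). By this rule 8.94% of all sequences were called lower and 4.82% higher, against 57.1% of the members lower. The 4 members include both arms of mir-34a, and with the arms of each stem-loop summed 3 of 5 family stem-loops were called lower. With Fisher's exact test in place of Kal's Z-test, 8.72% of all sequences were lower and the same 4 members were called. Either test sets the reads of one table against those of the other and holds no variation between cultures. The median log2 fold was -1.42 over the 5 members read in both tables and -0.20 over all 369 sequences with a fold.

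**Figure D1:**
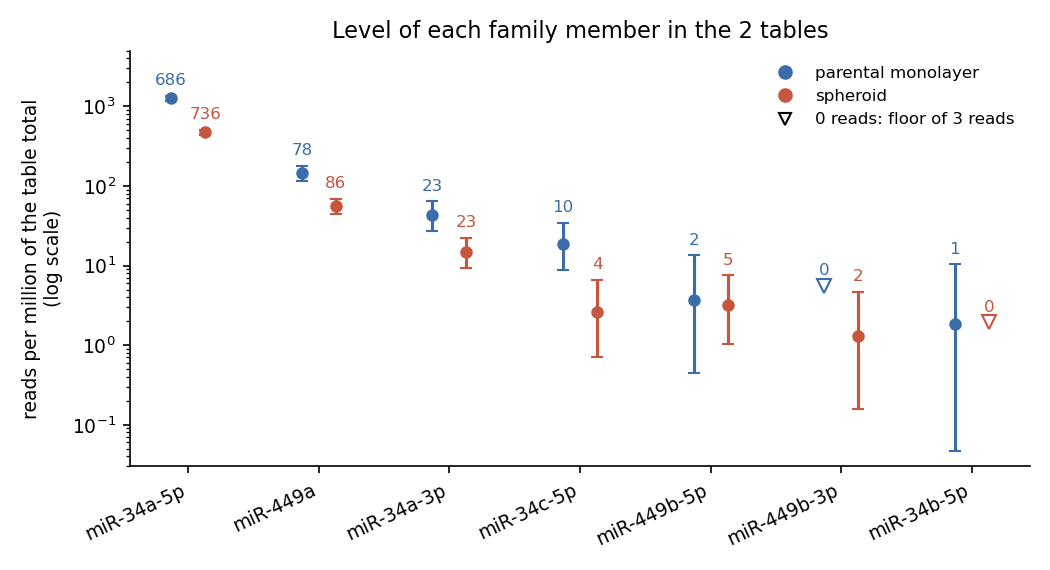
Level of each family member in rpm (log axis) in the parental (blue) and spheroid (red) table, with exact binomial 95% intervals and the reads counted printed above. Intervals of the 2 tables lie apart for miR-34a-5p, miR-449a, miR-34a-3p and miR-34c-5p and overlap for miR-449b-5p, and open triangles stand at the floor of 3 reads where 0 were counted (5.56 rpm parental, 1.93 rpm spheroid).

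miR-34a-5p, the principal tumour-suppressive member, was by far the most abundant. It had 686 reads in the parental and 736 in the spheroid table, that is 1271 rpm (95% interval 1178 to 1370) and 473.9 rpm (440.3 to 509.4). At its parental share, 1974 reads would have been counted in the deeper spheroid table. The fold was 0.373 (0.336 to 0.414; log2 -1.42; adjusted p = 3.58e-82 by Kal's Z-test), and the intervals of the 2 tables lay far apart. Ranked by reads, miR-34a-5p was number 63 in the parental and number 88 in the spheroid table.

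miR-34a-3p is the opposite arm of the same stem-loop, with a seed of its own. It had 23 reads in each table, 42.6 rpm (27.01 to 63.9) in parental and 14.8 rpm (9.39 to 22.2) in spheroid cells. The fold was 0.348 (0.186 to 0.648) with an adjusted p of 0.00062 by Kal's Z-test. The ratio of its fold to that of miR-34a-5p was 0.932 (0.495 to 1.76), so the folds of the 2 arms differed by less than counting error. Of the reads of both arms, those of miR-34a-5p were 96.8% (95.2 to 97.9) of 709 parental and 97.0% (95.5 to 98.1) of 759 spheroid reads, an odds ratio of 1.07 (0.569 to 2.02), which does not depend on how the tables are scaled.

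miR-34c-5p, from the second miR-34 locus, had 10 reads in the parental and 4 in the spheroid table. These counts gave 18.5 rpm (8.88 to 34.1) and 2.58 rpm (0.702 to 6.59). Its fold of 0.139 (0.0318 to 0.482) was the lowest among the members with one, and the adjusted p was 0.000348 by Kal's Z-test and 0.00156 by Fisher's exact test. miR-34b-5p, from the same locus, had 1 parental and 0 spheroid reads, and as its parental count was under the floor of 3 reads (1.93 rpm in the spheroid table), no fold was computed. The 95% interval of its 0 spheroid reads reached up to 2.38 rpm. miR-34b-3p and miR-34c-3p were not listed in either table. Summed, the mir-34b and mir-34c locus had 11 against 4 reads and a fold of 0.126 (0.0294 to 0.427). Whether this locus was reduced more than the mir-34a locus was not detectable at this depth, as the ratio of the 2 folds was 0.340 with an interval from 0.0786 to 1.15.

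miR-449a, the main product of the CDC20B locus, had 78 reads in the parental and 86 in the spheroid table, 144 rpm (114 to 180) and 55.4 rpm (44.3 to 68.4). The fold was 0.383 (0.279 to 0.528; adjusted p = 1.13e-09 by Kal's Z-test), and its rank by reads went from 136 to 175. Against miR-34a-5p, miR-449a had 11.4% as many reads in the parental and 11.7% in the spheroid table. The ratio of its fold to that of miR-34a-5p was 1.03 (0.734 to 1.44), so the most abundant products of the mir-34a and CDC20B loci differed in fold by less than counting error.

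miR-449b-5p, which differs from miR-449a at 1 compared base, had 2 parental and 5 spheroid reads (3.71 and 3.22 rpm). Its fold of 0.869 had an interval from 0.142 to 9.13, and the adjusted p was 0.902 by Kal's Z-test. At its parental share, 5.75 spheroid reads would have been counted. miR-449b-3p was at 0 parental and 2 spheroid reads, and the 95% interval of its 0 parental reads reached up to 6.83 rpm. miR-449c had 0 listed sequences. For the 3 members that were not called, miR-449b-5p, miR-449b-3p and miR-34b-5p, no spheroid count would have given a lower call at their parental reads. This rests on their few or 0 parental reads and on the rule for folds. By that rule no fold is given where 1 table has 0 reads and the other at most 3. A fall in these members could therefore not be called.

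**Figure D2:**
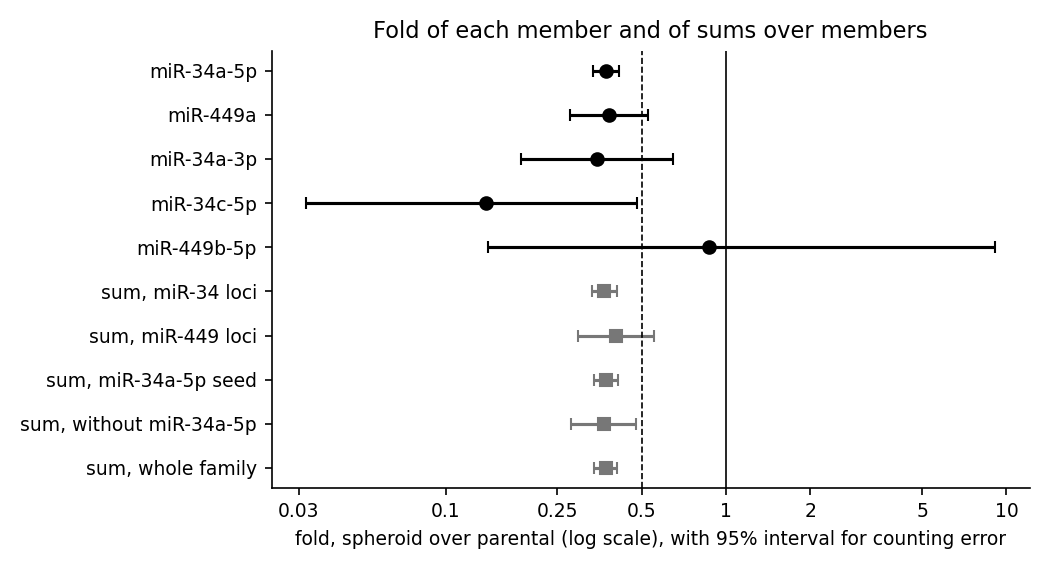
Fold of spheroid over parental (log axis) with 95% intervals for counting error, for the 5 members read in both tables (black) and for sums over members (grey), with lines at 1 and at 0.5. miR-34a-5p, miR-34c-5p, the whole family and its sum without miR-34a-5p have intervals wholly below 0.5, miR-449a and miR-34a-3p reach above it, and that of miR-449b-5p spans 1.

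In order of level, miR-34a-5p stood above miR-449a and miR-449a above miR-34a-3p in both tables, each with intervals apart from the next. The intervals of miR-34a-3p and miR-34c-5p overlapped in the parental table and were apart in the spheroid table. Those of miR-34c-5p and miR-449b-5p overlapped in both tables, and their order turned from 10 against 2 to 4 against 5 reads. Ligation during library preparation favours some small RNAs over others, so an order of reads need not be the order of molecules.

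The exact mature sequence made up a like share of the reads of miR-34a-5p in both tables. For the other members the share was lower in the spheroid table, with intervals too wide to tell it from no change. For miR-34a-5p, 331 of 686 parental reads (48.3%) and 358 of 736 spheroid reads (48.6%) had exactly the annotated sequence, an odds ratio of 1.02 (0.820 to 1.26). For miR-449a the shares were 75.6% and 68.6% (odds ratio 0.705, 0.331 to 1.48). For miR-34a-3p the shares were 43.5% and 34.8% (odds ratio 0.699, 0.178 to 2.66). The exact reads were 9 of 10 and 3 of 4 for miR-34c-5p, and 1 of 2 and 0 of 5 for miR-449b-5p. miR-34a-5p and miR-449a were above the share over all miRNAs, which was 34.9% in the parental and 32.7% in the spheroid table, with intervals wholly above it. The shares of miR-34a-3p and miR-34c-5p were above it too, but their spheroid intervals reached down to 16.4% and 19.4%. The remaining reads of a miRNA were variants in length or sequence.

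The family as a whole went from 800 reads and 1482 rpm to 856 reads and 551.2 rpm, a fold of 0.372 (0.337 to 0.410), or from 0.148% to 0.0551% of the table. The share of miR-34a-5p in this sum was 85.8% in parental and 86.0% in spheroid cells. Without it, the 114 parental and 120 spheroid reads of the other members gave a fold of 0.366 (0.281 to 0.477). The sum of the 4 members with the seed GGCAGUG gave 776 and 831 reads and a fold of 0.372 (0.337 to 0.411), of which miR-34a-5p held 88.4% and 88.6%. By locus, the miR-34 members had a summed fold of 0.368 (0.332 to 0.408) and the miR-449 members 0.404 (0.296 to 0.552). The ratio of the second to the first was 1.10 with an interval from 0.790 to 1.53. These sums are descriptions of the same reads and carry no test.

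Of the 7 members, 2 had at least 100 reads over both tables, miR-34a-5p and miR-449a. Among the 183 sequences with that many reads, 10.9% were called lower. Ordered by fold from the lowest, miR-34a-5p was number 6, beside miR-138-5p (fold 0.372) and miR-3613-5p (0.376), and miR-449a was number 8, beside miR-184 (0.384). The nearest sequences outside the family in level over both tables were found as the smallest distance in log2 rpm. For miR-34a-5p they were miR-196b-5p with 678 and 803 reads (fold 0.412), miR-106b-5p with 428 and 870 (0.707) and miR-20a-5p with 405 and 817 (0.701), of which miR-196b-5p was called lower. For miR-449a they were miR-184 with 85 and 94 reads, miR-190a-5p with 72 and 91 (0.439) and miR-574-5p with 75 and 78 (0.361), and all 3 were called lower. With 2 tables, such likeness says only that both levels were close.

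**Figure D3:**
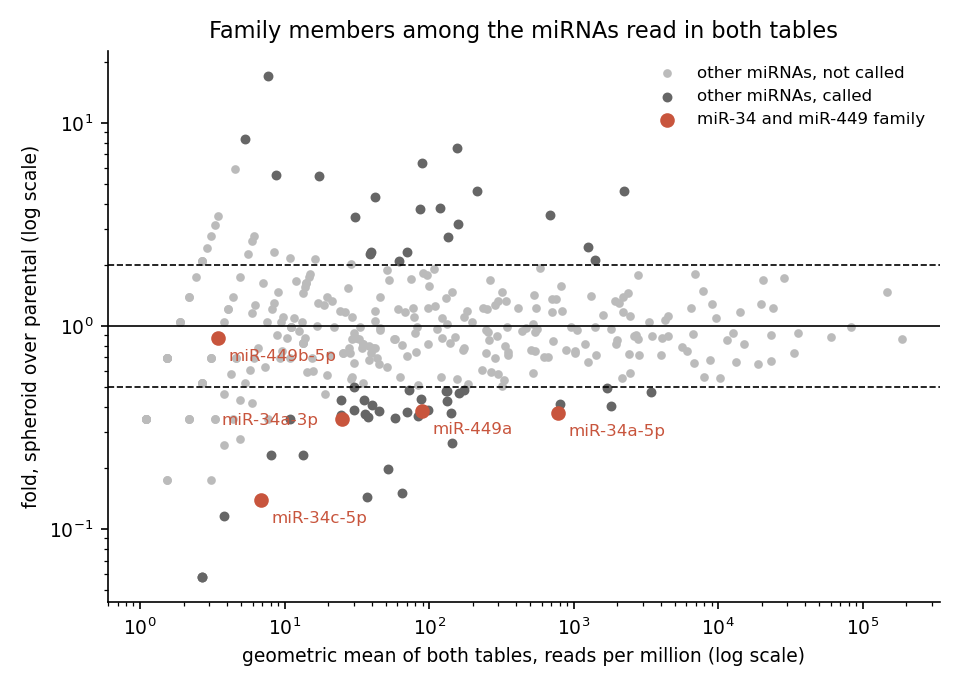
Fold of spheroid over parental against the geometric mean of both tables in rpm (log axes) for the 355 sequences read in both tables, with family members in red, other called miRNAs in dark grey and lines at 0.5, 1 and 2. miR-34a-5p, miR-449a, miR-34a-3p and miR-34c-5p lie below the line at 0.5 and miR-449b-5p lies at 0.869.

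E2F1 is described as an activator of the miR-449 locus and of the clusters that hold miR-17, miR-106b and miR-15b. Of 17 sequences from 9 stem-loops listed for these other clusters, 2 were called lower and 0 higher, a share near the 8.94% called lower over all sequences. These were miR-15b-3p (104 and 144 reads, fold 0.481) and miR-18a-5p (110 and 135 reads, fold 0.427), with adjusted p-values of 3.34e-08 and 5.56e-11 by Kal's Z-test. Their most abundant member, miR-92a-3p, which is best known from the miR-17-92 cluster, had 11675 and 41084 reads and a fold of 1.22. The median log2 fold over the 16 listed sequences with a fold or a bound was -0.44. The list did not cover every miRNA of these clusters. It left out miR-25-3p (fold 0.757) and miR-16-5p (0.813), neither of which was called.

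Markers of other cell types also differed between the tables. Both sequences of the endothelial mir-126 were called higher (63.0 to 264 rpm summed), and so were 2 of 8 fibroblast and mural sequences (122 to 361 rpm summed). For miR-126-3p the call rested on 1 parental and 49 spheroid reads, with a fold interval from 2.92 to 686. Of the fibroblast and mural reads, miR-143-3p alone held 48 of 66 parental and 441 of 560 spheroid reads. The other called sequence, miR-199a-3p/miR-199b-3p, had 14 and 91 reads. Fibroblast and mural sequences not called had few reads, among them miR-199a-5p (3 and 20), miR-145-3p (1 and 3), miR-145-5p (0 and 1) and miR-214-3p (0 and 2). Of 7 epithelial sequences of the miR-200 family, miR-205 and miR-203a, 0 were called (83.4 to 125 rpm summed). Of 5 blood sequences 0 were called (17536 to 22455 rpm). Of this sum, mir-486 held 9450 of 9466 parental and 34829 of 34873 spheroid reads, and the blood markers mir-223 and mir-451a had no reads. miRNAs typical of MDA-MB-231 monolayers, such as miR-21 and miR-221, made up 306693 and 275940 rpm. Of these 10 sequences, 2 were called lower, miR-222-5p (34 and 40 reads) and miR-100-3p (9 and 6 reads). No arm of miR-21 or miR-221 was called, and the most abundant, miR-21-5p, had a fold of 0.858. Over all sequences 8.94% were called lower and 4.82% higher, and whether these lists differ from those shares was not tested. The part of these shifts in the levels of the family was not tested.

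The folds of the 4 called members were below 1 on each scale tried, but their size differed between scales. With TMM factors or median-of-ratios factors every log2 fold rose by 0.16 or 0.20, and the 4 members were still called lower. With the total library reads given by the study, every log2 fold rose by 1.14. These totals count other small RNA too and, for the parental cells, far more miRNA reads than entered the deposited table. Parental levels are therefore understated on that scale, and its folds do not measure the size of the change. On that scale the folds were 0.824 for miR-34a-5p, 0.847 for miR-449a, 0.768 for miR-34a-3p and 0.307 for miR-34c-5p, and 0 members were called. If cultures are assumed to vary with a biological coefficient of variation of 0.2, miR-34a-5p alone was still called (edgeR exact test, adjusted p = 0.0240), and with 0.4 none was.

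**Figure D4:**
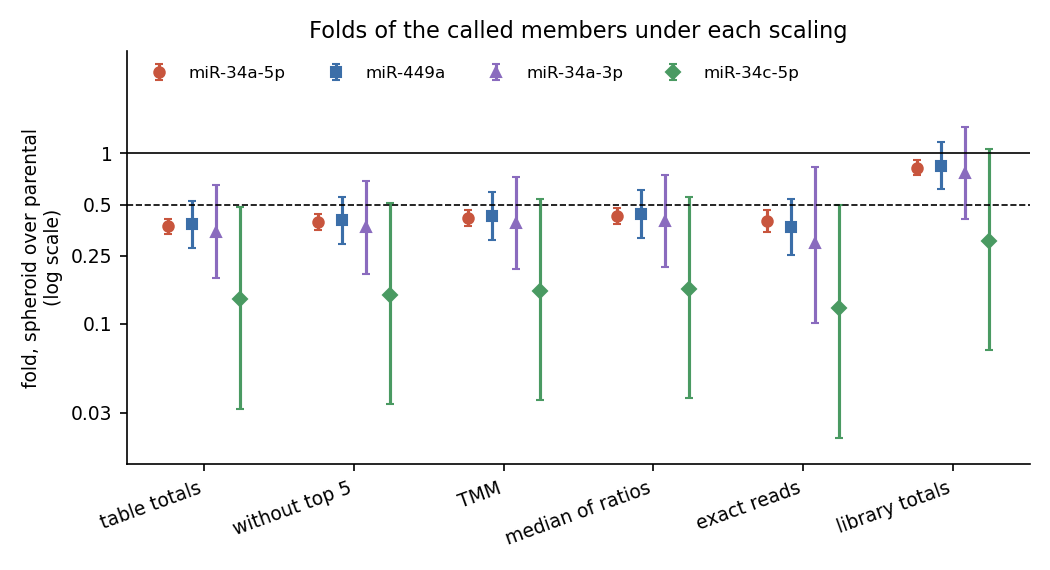
Fold of spheroid over parental (log axis, 95% intervals for counting error) of the 4 called members under each scaling or way of counting, with lines at 1 and 0.5. All points lie below 0.5 except miR-34a-5p (0.824), miR-449a (0.847) and miR-34a-3p (0.768) when scaled to library totals.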

How the data were processed

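Small RNA of MDA-MB-231 parental (3 samples) and spheroid (3 samples) cells was sequenced from TruSeq small RNA libraries. The deposited tables hold read counts per mature sequence, 1 table per condition. The authors kept trimmed reads of 17 to 27 nucleotides and annotated them in CLC Genomics Workbench 7.0 with miRBase 19 and Ensembl GRCh37 release 57. No normalization was applied to the counts, and further columns hold the part of them that equals the mature sequence or is unique to it.

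The members and all lists were chosen with earlier results of these data known. Every member was named, along with the 3 miRNAs nearest in level to each of the 2 most abundant members and, of a list of E2F1-induced clusters, the called and the most abundant miRNAs. Some further lists are not reported here. Tables were joined by sequence, and 388 of 437 sequences matched the RefSeq miRNA table. Counts were divided by the table total (539798 and 1553014 reads). Kal's Z-test, Benjamini-Hochberg adjustment, conditional odds ratios and Clopper-Pearson intervals were computed with scipy 1.17.1, numpy 2.4.6 and pandas 2.3.3 in Python 3.11.15, and plots with matplotlib 3.10.9. A bound against 3 reads replaced the fold where a table had 0 reads, and no fold was given where the other table had at most 3. Of these steps, the calls and the fold intervals were tried on counts simulated with counting error only, without variation between cultures. Alternatives were scaling (TMM of edgeR 4.0.16 and median-of-ratios of DESeq2 1.42.0 in R 4.3.3, library totals, totals that leave out the 5 most abundant miRNAs), exact or unique reads, summed arms, a minimum of 10 or 50 reads, Fisher's exact test, unadjusted p, and edgeR's exact test with an assumed variation of 0.2 or 0.4.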

Additional observations from a re-analysis of the deposited data

How the results depend on the processing

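Counts of calls moved most with the scale and with an assumed variation between cultures. Over all sequences, 39 were lower and 21 higher (65.0% lower), and the split was 8 and 13 (38.1%) at an assumed variation of 0.2, 0 and 0 at 0.4, and 5 and 140 (3.45%) with the library totals. Lower calls made up 51.7% with TMM and 49.1% with median-of-ratios factors, and 24 sequences were lower with exact reads alone. Of the family, 4 members were lower, against 1 at 0.2, 0 at 0.4, 0 with the library totals and 2 with at least 50 reads, where only miR-34a-5p and miR-449a were tested. The summed family fold of 0.372 was 0.416 with TMM, 0.428 with median-of-ratios factors and 0.822 with the library totals. The library totals count far more parental reads than entered the deposited table, so values on that scale understate parental levels. The fold of miR-449b-5p turned from 0.869 to 1 with median-of-ratios factors, as it equals the median ratio on which they rest, and to 1.92 with the library totals. No paired analysis was possible because the tables hold no column per sample, and for the same reason the replicate block and leaving out samples were not run. Depth limits miR-34c-5p, miR-34b-5p, miR-449b-5p and miR-449b-3p, each with at most 10 reads in a table.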
